A study of Mus musculus with 10 samples.

Results

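The homeostatic microglia genes are 10 markers of resting microglia, taken from the deposited table by gene name: P2ry12, P2ry13, Tmem119, Sall1, Siglech, Gpr34, Csf1r, Olfml3, Fcrls and Selplg. All 10 were among the 21936 genes of the table, and all 10 passed the filter on low counts together with 14585 others, 14595 in all. They were measured by bulk RNA sequencing of spinal cord at day 14 in wild-type mice with experimental autoimmune encephalomyelitis (EAE), an autoimmune disease directed at myelin that serves as a model of multiple sclerosis. The sample titles give 2 groups of 5, Nar for mice given naringenin, a citrus flavonoid, and EAE for the comparison group. All 10 samples carry naringenin in their treatment field, which leaves the treatment of the EAE group unknown here, and the labels state no strain, sex, age or dose. Nor do they tie samples to animals, so p-values reflect only the spread among these samples, which may be technical.

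Microglia are the resident macrophages of the central nervous system. In the healthy cord they survey their surroundings with fine processes and hold a set of surface receptors and regulators that depends on CSF1R and TGF-beta signals. When they are activated around damage this set is lowered while genes of phagocytosis and lipid handling are raised, and blood-derived macrophages that enter the tissue carry little of it. Csf1r and Selplg are also made by blood monocytes, Selplg by T cells and neutrophils, and Siglech by plasmacytoid dendritic cells. In bulk tissue, fewer microglia and less RNA of a gene per microglial cell cannot be told apart.

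Sample totals were 14.5 to 15.1 M counted reads in Nar and 16.7 to 19.0 M in EAE, and mitochondrial transcripts made up 6.69 to 7.51% of reads in Nar and 4.62 to 7.01% in EAE. All 14 spinal cord cell markers of neurons, oligodendrocytes, astrocytes and vessels were measured, with for example 278 ± 19.4 counts per M reads (CPM, SD, n = 5) of the myelin gene Mog in Nar and 215 ± 35.8 in EAE. In edgeR 1 of the 14 was called higher in Nar and 1 lower, against 1.58% and 2.36% of all genes tested. An unadjusted edgeR p below 0.05 was reached by 9 of the 14. Sample Nar 4 stood apart. It was the highest Nar sample in 10 of 10 members, against 26.2% of all genes tested, and in 7 members the gap to the next Nar sample made up more than 0.71 of the range of the group, as in 4.99% of all genes tested. The members' tests are therefore given with and without Nar 4, and so are those of some other genes, though not of all whose call it changes. Mog, for example, had an edgeR adjusted p of 0.0597 with all samples and 0.0231 without Nar 4. Leaving out each sample was planned, but the attention to Nar 4 followed from its values, and removing a Nar sample that lies with or above EAE lowers the members' p-values.

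P2ry13 and P2ry12, which code for related ADP receptors, are neighbours on chromosome 3 of GRCm38, both on the minus strand, at 59207892 to 59210882 and 59216272 to 59262871. The gap of 5.39 kb holds no other whole gene, and both lie inside the span of Med12l on the opposite strand. Tmem119 (chromosome 5, 113793729 to 113800516) and Selplg (113818536 to 113832644) lie 18.0 kb apart, with 1 predicted gene, Gm19931, between them. Olfml3 (103722222 to 103738001) and Fcrls (87250758 to 87263738) lie elsewhere on chromosome 3, both on the minus strand. The RefSeq promoter table (GRCm38.p6) held windows for 6 of the 10 genes. The 250 bases before the start site are shown for P2ry13, which passed the test of the groups, and for Olfml3, the member that varied most between Nar samples. Capitals mark AGGAA on either strand (TTCCT on the other), the core letters bound by PU.1, the transcription factor of the macrophage lineage, and by its ETS relatives.
P2ry13: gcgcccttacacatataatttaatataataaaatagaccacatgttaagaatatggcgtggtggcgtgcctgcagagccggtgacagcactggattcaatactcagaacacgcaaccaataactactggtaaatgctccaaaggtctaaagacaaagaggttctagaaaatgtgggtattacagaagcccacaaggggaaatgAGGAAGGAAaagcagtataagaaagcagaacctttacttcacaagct
Olfml3: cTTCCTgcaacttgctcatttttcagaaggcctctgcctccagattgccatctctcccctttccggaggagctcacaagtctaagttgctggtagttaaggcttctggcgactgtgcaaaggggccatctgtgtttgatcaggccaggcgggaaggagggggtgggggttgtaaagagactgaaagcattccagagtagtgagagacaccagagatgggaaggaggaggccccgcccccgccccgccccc
The P2ry13 window is chr3:59210883-59211132 and the Olfml3 window chr3:103738002-103738251, both on the minus strand. P2ry13 had 2 matches on its own strand, which overlap, and Olfml3 had 1 on the other strand. At least 1 match was found in 5 of the 8 windows of these genes and in 60.3% of the 32851 windows of the whole table, so the letters do not set the members apart.

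All 10 members had a lower fitted level in Nar than in EAE, against 46.6% of all genes tested. Of the 10 members 2 fell: Gpr34 and P2ry13. In the same comparison 3.93% of all genes tested were called, 2.36% fell and 1.58% rose, and no member rose. The median log2 fold change was −0.28 over the 10 members and 0.02 over all genes tested. An unadjusted p below 0.05 was reached by 4 members, and the share of all genes that reached it is not given here. The 2 groups overlapped in all 10 members, whereas in 3.12% of all genes tested all 5 Nar samples lay below all 5 EAE samples. Without Nar 4, 7 members fell, against 7.49% of all genes tested, with a median of −0.60. Nar 1, 2, 3 and 5 then lay below all EAE samples in 6 members, against 8.70% of all genes tested.

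**Figure D1:**
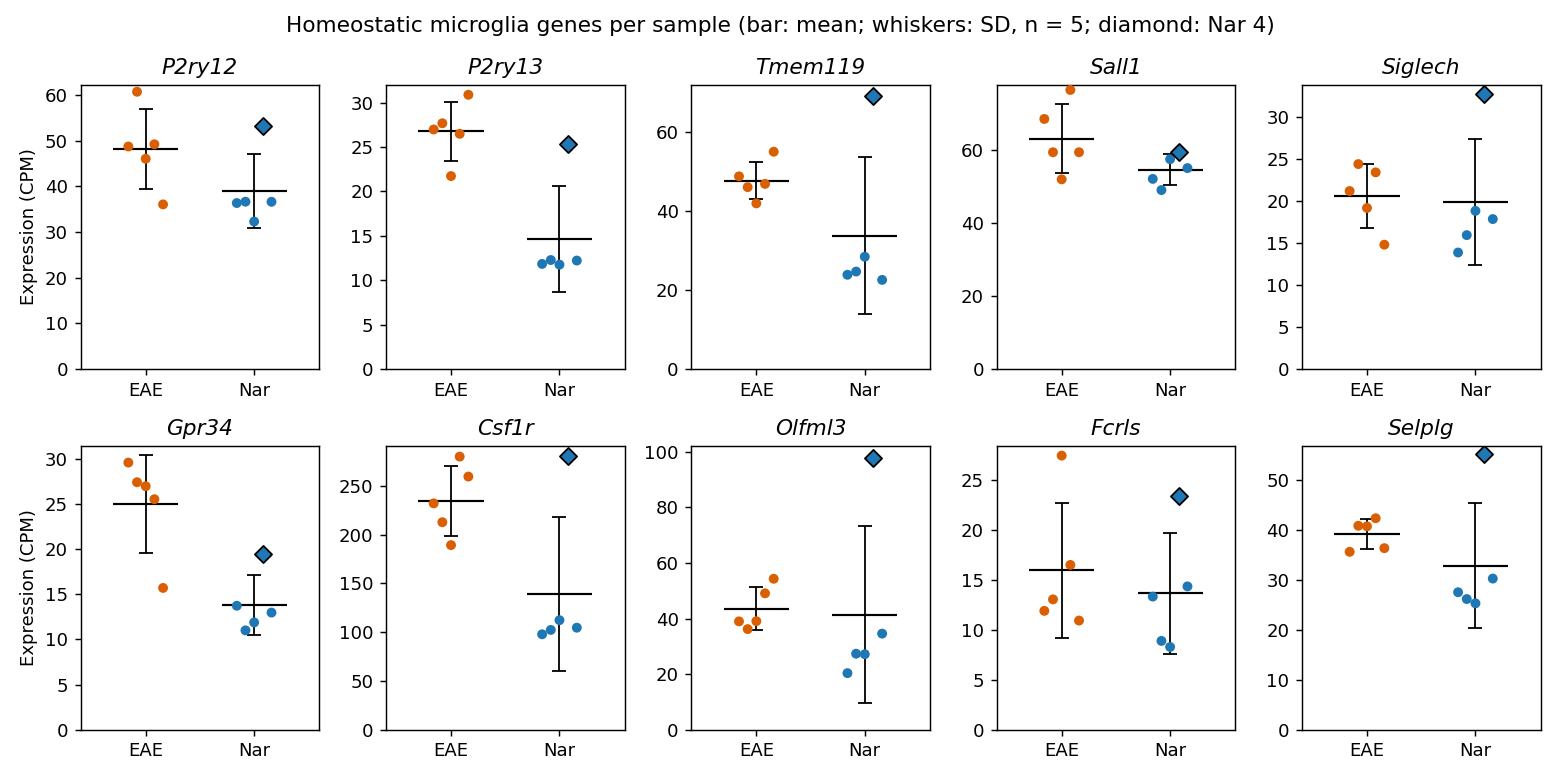
Expression in CPM of the 10 homeostatic microglia genes in each sample, EAE in orange and Nar in blue, with mean and SD (n = 5) and Nar 4 as a diamond; each panel has its own axis from 0. Nar 4 is the highest Nar sample in all 10 panels and lies above every EAE sample in 5.

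Gpr34, on chromosome X from 13632089 to 13640858, codes for a G protein-coupled receptor for lysophosphatidylserine, a lipid released by damaged cells. It was at 13.7, 11.0, 11.9, 19.5 and 12.97 CPM in Nar 1 to 5 and at 29.6, 27.4, 27.0, 25.5 and 15.7 CPM in EAE 1 to 5. Every Nar sample but Nar 4 was below all EAE samples, and EAE 5 lay below Nar 4. Gpr34 fell by 0.86 on the log2 scale (SE 0.183, edgeR adjusted p = 0.0255), and by 1.01 when Nar 4 was left out (edgeR adjusted p = 0.00112).

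P2ry13 fell by 0.86 as well (SE 0.211, edgeR adjusted p = 0.0463). It was measured at 11.8, 12.3, 11.7, 25.4 and 12.2 CPM in Nar 1 to 5, against 27.0, 27.7, 21.7, 26.5 and 30.9 CPM in EAE 1 to 5. Nar 1, 2, 3 and 5 lay close together, at 12.02 ± 0.263 CPM (SD, n = 4), below all EAE samples, while Nar 4 lay among the EAE samples. Without Nar 4, P2ry13 fell by 1.15 (SE 0.104, edgeR adjusted p = 7.83e-06).

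Its neighbour P2ry12, the ADP receptor that steers microglial processes towards injury, did not pass. The Nar values were 36.4, 36.7, 32.3, 53.2 and 36.6 CPM, and the EAE values 48.8, 60.8, 46.1, 49.2 and 36.1 CPM. EAE 5 lay with Nar 1, 2, 3 and 5, and Nar 4 with the other EAE samples. The log2 fold change of −0.30 (SE 0.149) had an edgeR adjusted p of 0.248, and P2ry12 fell by 0.44 without Nar 4 (edgeR adjusted p = 0.0321), where the 4 remaining Nar samples still overlapped EAE through EAE 5. The difference between the changes of P2ry12 and P2ry13 was not tested.

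The calls of Gpr34 and P2ry13 depended on which samples were used. The call of Gpr34 was lost when Nar 1, 3 or 5 or when EAE 1 or 4 was left out (edgeR adjusted p 0.0614 to 0.0765), and that of P2ry13 without any 1 of the 8 samples other than Nar 4 and EAE 3 (0.0684 to 0.116). Neither passed in a fit that includes the mitochondrial read share as a covariate. Of the EAE samples only EAE 3, at 7.01%, reached the Nar range of that share, so this fit can hardly separate the share from the group. There Gpr34 had a larger log2 fold change with a wider error (−0.98, SE 0.278, edgeR adjusted p = 0.114) and P2ry13 a smaller one (−0.60, SE 0.318, edgeR adjusted p = 0.381). In that fit 0 of the 10 members were called, 0.466% of all genes tested fell, and 1 member had an unadjusted p below 0.05. Without a filter on low counts, where 1.84% of genes fell, P2ry13 had an edgeR adjusted p of 0.0577.

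The share of all genes that fell changed with the setting too, which the members' counts are to be read against. Both members were called with DESeq2 size factors (2.44% of genes fell), upper quartile factors (2.87%), a floor on the mean CPM (2.54%), the DESeq2 Wald test (5.22%), the replicate block (3.08%) and log2 FPKM with 1 added (3.87%, or 2.16% unfiltered) or 0.1 added (3.96%), and limma-voom called 3 members (3.98%). Without Nar 1, 2, 3 or 5 in turn, 0 or 1 member fell, against 0.74%, 3.04%, 0.909% and 0.753% of genes. Without EAE 1 to 5 in turn, 0 to 2 members fell, against 1.17%, 2.07%, 3.17%, 1.16% and 1.35%.

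**Figure D2:**
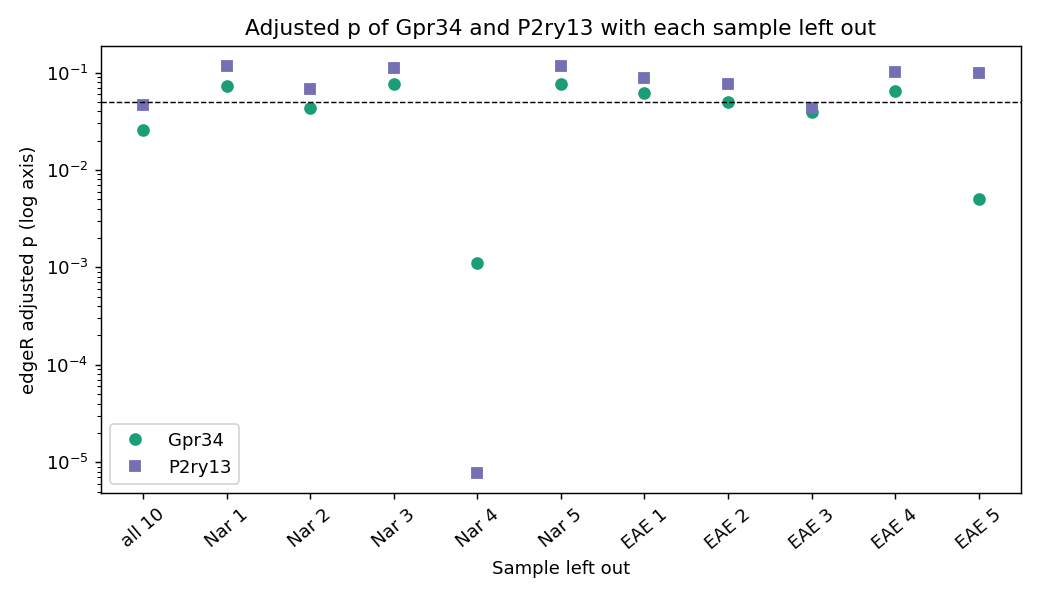
Adjusted p of Gpr34 and P2ry13 from edgeR on a log axis, for all 10 samples and with each sample left out; the dashed line is the threshold of 0.05. Without Nar 4 the values drop to 0.00112 and 7.83e-06, and for most other samples P2ry13 moves above the line.

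Csf1r (chromosome 18, 61100598 to 61132149), the receptor tyrosine kinase on whose signals microglia depend to survive, had the highest mean FPKM of the 10, a level divided by annotated exon length. It read 97.8, 102, 112, 280 and 105 CPM in Nar 1 to 5, and 232, 213, 189, 280 and 260 CPM in EAE 1 to 5. Nar 1, 2, 3 and 5 all lay below every EAE sample, while Nar 4 was level with EAE 4, the highest of them. The log2 fold change was −0.75 (SE 0.309, edgeR adjusted p = 0.196), and Csf1r fell by 1.17 without Nar 4 (SE 0.103, edgeR adjusted p = 7.82e-06). Csf1r shares 15.1% of its exon bases with Hmgxb3 on the opposite strand, and no strand-marking step is stated, so reads there cannot be told apart. Hmgxb3 had 25.7 ± 1.14 CPM in Nar and 28.7 ± 2.79 in EAE (SD, n = 5), far below Csf1r.

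Genes of the CSF1R pathway, a list of its 2 ligands, signalling proteins and lineage transcription factors, had 1 of 16 falling and 0 rising, with a median of −0.90. The share falling over all genes tested was 2.36%. Cebpa, a transcription factor of myeloid cells, fell by 1.04 (SE 0.190, edgeR adjusted p = 0.0131), from 20.4 ± 1.57 CPM in EAE to 9.92 ± 3.62 in Nar (SD, n = 5). Of the ligands, Csf1 was at 93.8 ± 15.8 CPM in Nar against 109 ± 10.4 in EAE (SD, n = 5, −0.22 on the log2 scale, edgeR adjusted p = 0.229), and Il34, the ligand made mainly by neurons, 15.3 ± 1.88 and 14.6 ± 1.30 CPM (0.06, edgeR adjusted p = 0.767). Without Nar 4, 12 of the 16 fell, against 7.49% of all genes tested. Csf1 was among the 12 (−0.33, edgeR adjusted p = 0.0147), and Il34 was not (0.05, edgeR adjusted p = 0.824).

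Tmem119, a transmembrane protein used to tell microglia from other macrophages, was at 23.9, 24.7, 28.4, 69.2 and 22.6 CPM in Nar 1 to 5. In EAE 1 to 5 it was at 48.8, 46.1, 42.0, 46.9 and 55.1 CPM. Nar 4 thus exceeded every EAE sample while the other Nar samples lay below them all. Tmem119 did not pass (log2 fold change −0.50, SE 0.309, edgeR adjusted p = 0.369), and fell by 0.94 without Nar 4 (SE 0.0939, edgeR adjusted p = 2.00e-05).

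Olfml3, a secreted olfactomedin-like protein of microglia, spread most widely in Nar. Its values were 20.4, 27.4, 27.2, 97.8 and 34.6 CPM in Nar 1 to 5 and 39.0, 36.2, 39.1, 49.1 and 54.3 CPM in EAE 1 to 5. Nar 4 held 3.58 times the mean of the other Nar samples, which were all below EAE. Its group means were close, 41.5 ± 31.9 CPM in Nar and 43.5 ± 7.77 in EAE (SD, n = 5, log2 fold change −0.07, SE 0.417, edgeR adjusted p = 0.940), and Olfml3 fell by 0.67 without Nar 4 (edgeR adjusted p = 0.0152).

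Selplg codes for PSGL-1, the glycoprotein that binds selectins. It was at 27.5, 26.2, 25.3, 55.1 and 30.3 CPM in Nar 1 to 5 and at 35.6, 40.8, 40.7, 42.3 and 36.3 CPM in EAE 1 to 5, again with Nar 4 above and the other Nar samples below all EAE samples. The log2 fold change was −0.25 (SE 0.197, edgeR adjusted p = 0.471), and Selplg fell by 0.52 without Nar 4 (edgeR adjusted p = 0.00100).

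Sall1, Siglech and Fcrls passed the test neither with nor without Nar 4. Sall1 (chromosome 8, 89027235 to 89044162), the zinc finger transcription factor that maintains microglial identity, moved least between Nar samples: they ranged from 49.1 to 59.6 CPM, EAE from 52.0 to 76.5 CPM, and Nar 4 had 1.11 times the mean of the other Nar samples (log2 fold change −0.21, SE 0.0959, edgeR adjusted p = 0.215, or 0.162 when Nar 4 is left out). Siglech (chromosome 7, 55768178 to 55778925), a lectin for sialic acids that signals through the adaptor Tyrobp, ranged from 13.9 to 32.8 CPM in Nar and from 14.8 to 24.4 CPM in EAE (−0.05, SE 0.223, edgeR adjusted p = 0.911, or 0.198 when it is left out). Fcrls, an Fc receptor-like protein of mouse microglia, had the widest spread of the members in EAE, from 10.9 to 27.4 CPM with EAE 3 highest, and 8.28 to 23.4 CPM in Nar (−0.22, SE 0.338, edgeR adjusted p = 0.732, or 0.307 when it is left out). It was also among the members with the fewest reads, 124 to 481 per sample.

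**Figure D3:**
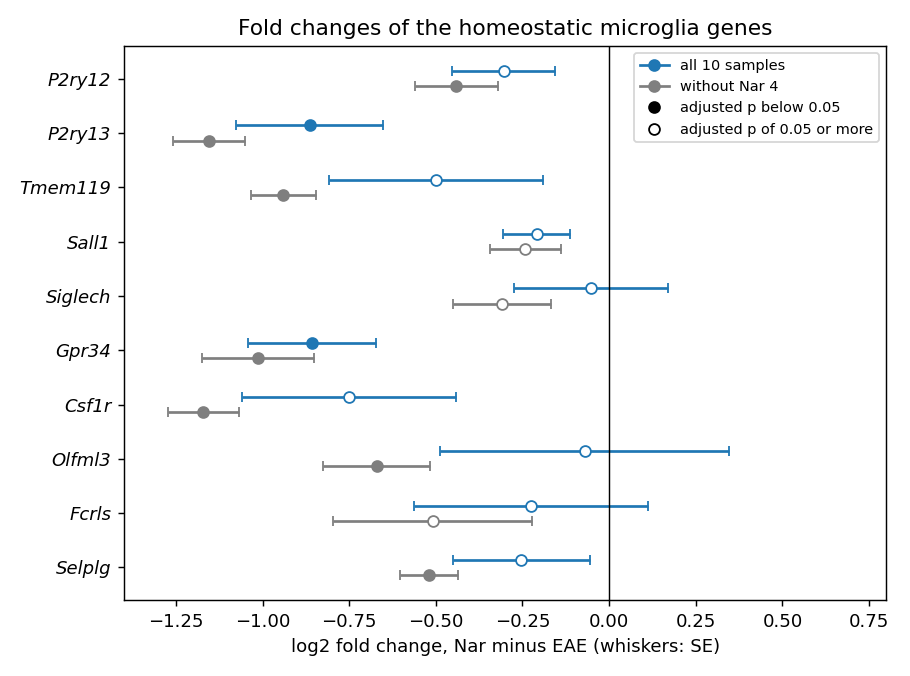
Log2 fold changes of the 10 members, Nar minus EAE, with standard errors from edgeR, for all 10 samples in blue and without Nar 4 in grey; filled points have an adjusted p below 0.05. With all samples Gpr34 and P2ry13 are filled, and without Nar 4 all but Sall1, Siglech and Fcrls.

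The EAE samples did not rank alike across the members. EAE 5 was the lowest EAE sample in P2ry12, Siglech, Gpr34 and Fcrls, and the highest in P2ry13, Tmem119 and Olfml3. EAE 4 was highest in Csf1r, Sall1 and Selplg, and EAE 3 lowest in Csf1r, Sall1, Tmem119 and P2ry13. EAE 5 also had the highest mean of the infiltrating monocyte and macrophage list among all samples, 3.49 log2 CPM, and EAE 3 the lowest of the EAE samples, 1.03. Whether those cells had a part in the order of the EAE samples was not tested.

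Levels of different genes are set side by side here on the FPKM scale, which divides by gene length. For the members that length counts all bases annotated as exons of the gene, which a single transcript need not hold. The order between genes thus depends on the annotation too. In EAE the order of mean FPKM was Csf1r (41.2 ± 7.32, SD, n = 5), Tmem119 (20.9 ± 2.42), P2ry12 (19.1 ± 3.40), Sall1 (12.2 ± 2.09), Gpr34 (12.1 ± 2.56), P2ry13 (10.7 ± 1.47), Selplg (9.26 ± 0.730), Olfml3 (7.15 ± 1.41), Fcrls (6.87 ± 2.75) and Siglech (6.14 ± 1.16). Neighbours in that order were farther apart than the larger of their SDs at 3 places: between Csf1r and Tmem119, between P2ry12 and Sall1, and between Selplg and Olfml3. In Nar no neighbours were. There Csf1r led too, at 23.9 ± 13.6 FPKM, and P2ry13 was last at 5.75 ± 2.35. Without Nar 4 the Nar order ran from Csf1r (17.9 ± 1.06 FPKM, SD, n = 4) through P2ry12, Tmem119, Sall1, Selplg, Gpr34, Siglech and Fcrls to P2ry13 (4.70 ± 0.0994) and Olfml3 (4.39 ± 0.949). Neighbours were then beyond the larger SD at 4 places, below Csf1r, P2ry12, Sall1 and Gpr34, and the last 4 genes could not be ranked.

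Other genes of resting microglia were a list of 24, of which 22 were tested, with a median of −0.23. Against 2.36% of all genes tested, 6 of the 22 fell, and 0 rose. Among them were Adgrg1, an adhesion receptor (105 ± 0.516 CPM in Nar and 126 ± 6.54 in EAE, SD, n = 5, log2 fold change −0.26, edgeR adjusted p = 0.0151), Hpgd, which breaks down prostaglandins (−0.72, edgeR adjusted p = 0.0204), and Sparc, a matrix protein that astrocytes make too (−0.41, edgeR adjusted p = 0.0162). The fractalkine receptor gene Cx3cr1 had 71.7 ± 35.0 and 127 ± 10.3 CPM (−0.82, edgeR adjusted p = 0.113). Without Nar 4, 11 of the 22 fell, against 7.49% of all genes tested, Cx3cr1 (−1.17, edgeR adjusted p = 1.17e-06) among the 11.

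TGF-beta, the signal that upholds Sall1 and the resting state, was represented by 15 genes of its pathway (median −0.24). While 2.36% of all genes tested fell, 2 of the 15 did, and 0 rose. The 2 that fell were the receptor genes Tgfbr1, at 41.7 ± 10.1 CPM in Nar and 72.6 ± 11.6 in EAE (SD, n = 5, log2 fold change −0.80, SE 0.159, edgeR adjusted p = 0.0210), and Tgfbr2 (−0.89, SE 0.209, edgeR adjusted p = 0.0438). The ligand gene Tgfb1 differed by −0.71 on the log2 scale (edgeR adjusted p = 0.102), and by −1.03 when Nar 4 was left out (edgeR adjusted p = 3.75e-05). Without Nar 4, 5 of the 15 fell, against 7.49% of all genes tested. Tgfbr1 is also in the list of other resting microglia genes and is counted in both.

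Nucleotide receptors and the surface enzymes that make and remove their ligands had 3 of 15 falling and 0 rising (median −0.26). In the same fit 2.36% of all genes tested fell. Entpd1, which codes for CD39, an enzyme that breaks ATP and ADP down, fell by 0.76 (edgeR adjusted p = 0.0308), and its relative Entpd2 by 0.49 (edgeR adjusted p = 0.0212). The nucleotide receptor gene P2ry2 was low, at 0.535 ± 0.199 CPM in Nar and 1.86 ± 0.574 in EAE (SD, n = 5, −1.79, edgeR adjusted p = 0.0103). Without Nar 4, 6 fell and 1 rose, against 7.49% and 2.61% of all genes tested.

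Genes of other myeloid states had lower medians than the members. Their counts are to be read against the 2.36% of all genes tested that fell. Genes that all microglia and macrophages carry had a median log2 fold change of −0.96, with 1 of 18 falling, Cd68, a lysosomal protein of phagocytes (11.6 ± 7.82 CPM in Nar, 41.4 ± 7.60 in EAE, SD, n = 5, −1.84, edgeR adjusted p = 0.0255). The median was −0.88 in genes of disease-associated microglia, with 8 of 21 falling, Apoe (−1.35, edgeR adjusted p = 1.44e-05) and Spp1 (−0.84, edgeR adjusted p = 0.0142) among them. In Apoe and Spp1 all Nar samples lay below all EAE samples, Nar 4 included, at 2372 and 136 CPM. Which cells of the cord these transcripts came from was not tested. The value for the lipid receptor gene Trem2 was −1.35 (edgeR adjusted p = 0.0840), and −1.94 when Nar 4 was left out (edgeR adjusted p = 1.20e-07). Without Nar 4, 17 of the 18 and 20 of the 21 fell, against 7.49% of all genes tested. Csf1 is in the disease-associated list as well as in the CSF1R list. The difference between these lists and the members was not tested.

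Sample by sample, the mean log2 CPM of the 10 members was 4.59 to 4.76 in Nar 1, 2, 3 and 5, 5.68 in Nar 4 and 5.21 to 5.46 in EAE. For the pan-microglia and macrophage list it was 4.06 to 4.41, 5.97 and 5.53 to 5.98, and for the disease-associated list 4.94 to 5.22, 6.45 and 6.52 to 6.99. Nar 4 thus lay above EAE in the members, within EAE in the pan-microglia and macrophage list, and just below EAE in the disease-associated list. The member mean minus the pan-microglia and macrophage mean was 0.23 to 0.56 in Nar 1, 2, 3 and 5, −0.28 in Nar 4 and −0.77 to −0.18 in EAE. Minus the disease-associated mean it was −0.58 to −0.20, −0.77 and −1.71 to −1.17. Minus the mean of the other resting microglia genes it was −0.90 to −0.72, −0.30 and −0.74 to −0.44. Relative to the first 2 lists, the members thus stood higher in Nar 1, 2, 3 and 5 than in all 5 EAE samples, with Nar 4 inside the EAE range for the first and between the groups for the other. Relative to the other resting genes the order was turned: Nar 1, 2 and 3 lay below all EAE samples, Nar 5 overlapped with EAE 5, and Nar 4 was above them all. In that list 14 of 22 genes had a fold change below 0, against all 10 members and 46.6% of all genes tested. The part of other cells of the cord in the list mean was not tested.

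**Figure D4:**
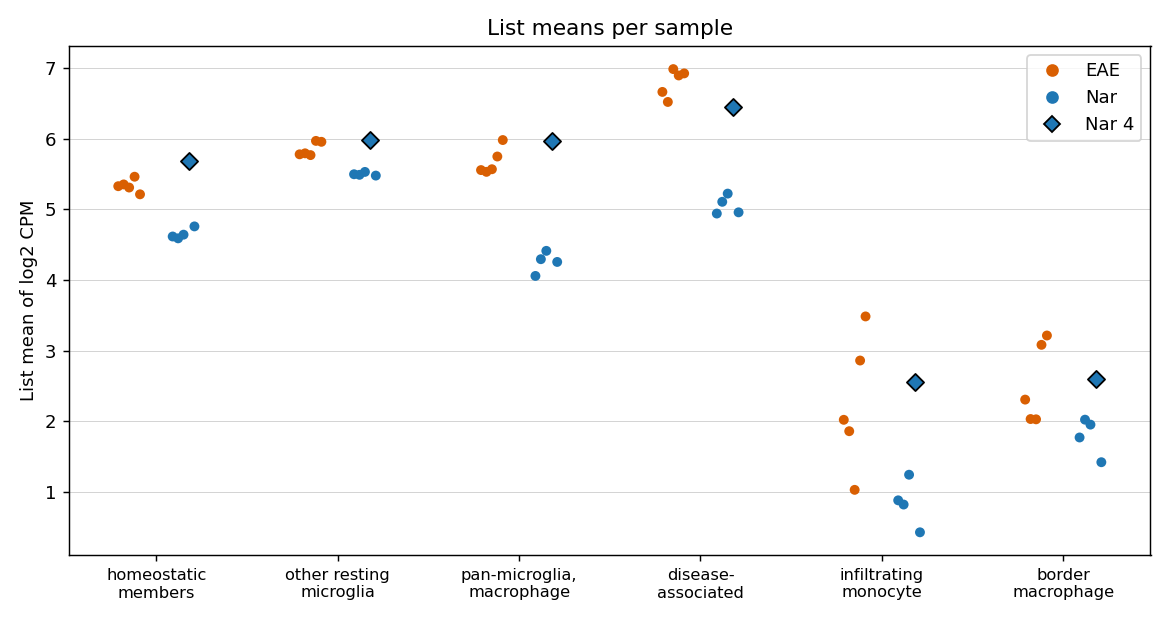
Mean log2 CPM of 6 gene lists in each sample, EAE in orange, Nar in blue and Nar 4 as a diamond. Nar 4 lies at 5.68 for the members, above all EAE samples, and at 6.45 for disease-associated microglia genes, below them.

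Blood-derived cells that share some of the members were followed by their own markers. Of 14 tested infiltrating monocyte and macrophage genes 2 fell, Ms4a7 (−3.29, edgeR adjusted p = 0.0129) and the lipopolysaccharide co-receptor gene Cd14 (−1.36, edgeR adjusted p = 0.0463). With all samples 2.36% of all genes tested fell. Ms4a7 was low, at 0.283 ± 0.449 CPM in Nar and 2.86 ± 0.759 in EAE (SD, n = 5). The summed level of the 14 genes was 126 to 162 CPM in Nar 1, 2, 3 and 5, 237 in Nar 4 and 150 to 466 in EAE. In Nar 1, Cd14 was at 5.14, Chil3 at 1.08, Ccr2 at 0.473 and Ms4a7 at 0.135 CPM. Most of the sum there came from other genes of the list, and from which cells was not tested. The monocyte chemokine receptor gene Ccr2 was at 9.85 CPM in Nar 4, and its group means were 2.71 ± 4.03 CPM in Nar and 3.57 ± 1.33 in EAE (SD, n = 5, −0.40 on the log2 scale, edgeR adjusted p = 0.802). Without Nar 4, 3 of the 14 fell, Ccr2 (−1.95, edgeR adjusted p = 0.00702) beside Ms4a7 and Cd14, and the remaining Nar samples lay below all EAE samples in Ccr2. Border-associated macrophage genes summed to 51.4 to 54.8, 70.3 and 59.4 to 95 CPM over the 6 of 12 tested, of which 1 fell, Stab1 (−0.93, edgeR adjusted p = 0.0464), and their defining gene Mrc1 had 1.54 ± 0.576 CPM in Nar and 2.31 ± 0.698 in EAE (edgeR adjusted p = 0.288). For T cells, B cells, neutrophils and plasmacytoid dendritic cells 7 of 16 markers were tested. None passed in edgeR, 2 had an unadjusted p below 0.05, and the DESeq2 Wald test called 1. Their sum, 149 to 156, 208 and 163 to 192 CPM, was mostly Tcf4, which is not limited to those cells (135 ± 8.76 CPM in Nar and 145 ± 6.41 in EAE). The T cell gene Cd4 was at 1.89 CPM in Nar 4, 0.569 ± 0.748 in Nar and 2.04 ± 1.21 in EAE (SD, n = 5). Without Nar 4, 3 of the 7 fell on the log2 scale: Cd4 (−3.05, edgeR adjusted p = 0.00442), and, named after their values were seen, the T cell gene Cd2 (−3.33, edgeR adjusted p = 0.00845) and Bst2 (−0.71, edgeR adjusted p = 0.0434). Some monocyte and T cell markers, Ms4a7, Cd14, Ccr2, Cd4 and Cd2, thus fell in the same comparison in which 7 members did. There 7.49% of all genes tested fell. Most of the 14 monocyte and macrophage genes did not, Chil3 among them (edgeR adjusted p = 0.145). The part of blood-derived cells in the values of Csf1r, Selplg and Siglech was not tested.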

How the data were processed

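Polyadenylated RNA of 10 spinal cord samples was sequenced on an Illumina NovaSeq, per the labels' protocols. The submitters' processing notes name cutadapt and HISAT2 2.0.5. Read counter and annotation: not given in the sources used. The authors deposited a raw read count and an FPKM value per gene and sample, per the file headers. Of 153986 deposited FPKM values above 0.1, 100% lay within 1% of the count divided by length and column total. Of the 21936 genes, 21694 have the same start and end in GENCODE M21 (GRCm38).

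Counts were filtered with filterByExpr, scaled with TMM factors and tested with edgeR 4.0.16 in R 4.3.3 (quasi-likelihood, robust), Nar minus EAE, two-sided, with Benjamini-Hochberg adjustment over 14595 genes at 0.05. The fit was tested on simulated data. CPM use TMM-scaled totals, and log2 CPM add a prior count of 2. Alternatives used DESeq2 1.42.0, limma 3.58.1 on counts or on log2 FPKM with 1 or 0.1 added, other scalings and filters, a covariate, a replicate block and the omission of each sample. Within groups, no pair of samples matched within counting noise (chi-square per degree of freedom at least 4.16).

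Named genes were the 10 members, the 3 genes of smallest p in each other list, 11 index genes and the 5 genes most like the members. Members and lists were chosen with earlier results of these data known. Of the named genes, 2 are not reported here.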

Additional observations from a re-analysis of the deposited data

Results flagged for a closer look

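In each group of 5 samples a highest or lowest sample was set apart when its gap to the next sample exceeded 0.71 of the range of the group. Chance alone does this in about 1 of 20 groups. Among the 98 groups of 49 named genes, leaving out the 5 genes chosen for their likeness to the members, it happened in 27, and in 25 of these the sample was Nar 4 as the highest of its group. Since the named genes are correlated and 1 sample carries most cases, these are not 25 separate observations.

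Nar 4 was set apart in 7 of the 10 members, with these CPM values: P2ry12 53.2, P2ry13 25.4, Tmem119 69.2, Siglech 32.8, Csf1r 280, Olfml3 97.8 and Selplg 55.1. It was not in Sall1, Gpr34 and Fcrls. In other microglia, macrophage and pathway genes Nar 4 stood apart at these CPM values: Hpgd 27.5, Cd68 25.6, Ptprc 35.3, C1qa 245, Ctsb 1162, Ms4a7 1.08, Cd14 13.2, Cd4 1.89, Runx1 6.68, Plcg2 18.4, Entpd1 28.4, Gcnt1 13.02, B4galt1 15.6, Cx3cr1 134, Aif1 25.0, Tgfb1 19.7, Trem2 52.0 and Ccr2 9.85. In the 5 genes most like the members, where the choice itself favours a high Nar 4, its CPM values were Sipa1 37.0, Eef1a1 2679, Nes 70.5, Fos 33.1 and Mcm3 11.3. EAE 4 was set apart as the highest EAE sample in Ms4a7 (4.20 CPM) and Tgfb1 (21.0 CPM).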

How the results depend on the processing

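The count of 2 members called lower held with DESeq2 or upper quartile factors, a 1 CPM floor, the DESeq2 Wald test, the replicate block and all 3 FPKM fits, was 3 with limma-voom, where Csf1r joined (adjusted p = 0.0472), and was 1 without a filter and 0 with the mitochondrial covariate. It was 0 to 7 with a sample left out, 7 without Nar 4, 2 without EAE 3 and 0 or 1 without any other sample. The median log2 fold change of the members stayed between −0.60 and −0.25. No scaling moved the median of all genes by more than 0.1. The 25 genes called in the other lists became 51 with the DESeq2 Wald test, 58 with limma-voom, 40 with the replicate block, 44 and 45 with FPKM plus 1 and plus 0.1, 19 without a filter, 4 with the mitochondrial covariate, and 6 to 83 with a sample left out, 83 without Nar 4. Calls over all genes tested, 3.93% in the main fit, moved too. In the same order they were 8.59%, 6.04%, 4.36%, 5.29%, 5.36%, 2.86% and 1.35%, and 10.1% without Nar 4. The cause was not tested. Replicate numbers are shared only by name: correlations of same-numbered deviations were −0.227 to 0.161, no Nar sample correlated best with the EAE sample of its own number, and the block gave 636 calls over all genes in place of 574 and changed no member call. Signs turned, always without a call: with the covariate Sall1 had 0.0199, Siglech 0.0538, Olfml3 0.361, Chil3 0.807, F13a1 0.474, Mrc1 0.168, B4galt1 0.0543 and Ccr2 0.543. With a sample left out Siglech ranged from −0.310 to 0.0370 (above 0 without Nar 1 or EAE 2), Olfml3 from −0.67 to 0.0886 (above 0 without Nar 1, 2 or 3 or EAE 5), Fcrls from −0.509 to 0.0564 (above 0 without EAE 3) and Il34 from −0.00412 to 0.104 (below 0 without Nar 5). Members had 124 to 5266 reads per sample.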

Other observations

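Selectins and the enzymes that build the selectin-binding sugars and sulfates of PSGL-1, the product of Selplg, had 0 of 10 genes passing in edgeR and 0 in DESeq2 or limma-voom, with 1 at an unadjusted edgeR p below 0.05 (median log2 fold change −0.14). Gcnt1, which branches O-linked sugars, had 6.09 ± 3.88 CPM in Nar and 10.9 ± 2.56 in EAE (SD, n = 5, log2 fold change −0.84, edgeR adjusted p = 0.171). The galactosyltransferase gene B4galt1 had 9.20 ± 3.62 and 13.2 ± 3.76 CPM (edgeR adjusted p = 0.241). Tpst2, a tyrosine sulfotransferase, had 19.3 ± 1.53 and 21.3 ± 0.672 CPM (edgeR adjusted p = 0.301). Without Nar 4, 2 of the 10 fell, against 7.49% of all genes tested: Gcnt1 (−1.33, edgeR adjusted p = 0.000266) and B4galt1 (−0.80, edgeR adjusted p = 0.0157).

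The 5 genes whose log2 CPM followed the mean z-score of the members most closely over the 10 samples were Sipa1 (r = 0.978), Eef1a1 (0.978), Nes (0.976), Fos (0.971) and Mcm3 (0.969), none of them in a microglia list. These r values are descriptions. The 10 points share library and scaling, and in all 5 genes Nar 4 was the highest Nar sample. The choice of these genes itself favours that pattern, so it is no separate finding.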
